A study of Mus musculus with 2 samples.

Results

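The genes of the Wnt signalling pathway were described in total RNA of newborn mouse lung. Members were chosen by symbol alone: the protein-coding Wnt, Fzd, Sfrp, Dkk and Rspo genes, Lgr4, Lgr5 and Lgr6, and Lrp5, Lrp6, Wif1, Notum, Porcn, Wls, Ctnnb1, Axin2, Lef1 and Tcf7. This gave 54 genes of 21474 protein-coding genes and of 43346 mouse genes in the tables. The study holds 1 group of 2 libraries, each from the lungs of a single B6NCrl pup on postnatal day 0 with no treatment or mutation named. Replicate 1 is pup 1 and replicate 2 is pup 3, both under pregnancy number 1. Both libraries carry the same donor identifier in the labels, so counting them as 2 animals, and every SD, relies on the pup numbers only. No sex was recorded for either pup. There is no second condition, so levels are described within the tissue and the pups are compared with each other as 1 library against 1 library, without a replicate check and without a p-value.

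Wnt proteins are secreted ligands that carry a lipid group, which Porcn attaches in the endoplasmic reticulum and which Wls needs to carry them to the cell surface. They bind Frizzled receptors together with Lrp5 or Lrp6, which stops the breakdown of beta-catenin (Ctnnb1), so that beta-catenin enters the nucleus and acts with Tcf7, Lef1 and their relatives on target genes such as Axin2. Other Wnt ligands act through Frizzled receptors without beta-catenin. R-spondins, bound by Lgr receptors, raise the number of Frizzled receptors at the surface, and secreted proteins of the Sfrp, Dkk, Wif1 and Notum kinds hold the signal back. In the mouse, Wnt signals from the mesenchyme are needed to specify the lung in the foregut and later to shape its branching and its alveoli.

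The stretch of each ligand to which Porcn attaches the lipid is shown for the 9 ligands detected below, since it is the feature that ties the ligands to Porcn, Wls and Notum. Each is 24 bases of coding sequence, read 5′ to 3′ from the GENCODE transcripts on GRCm38, and the capitals mark the serine codon that receives the lipid.
Wnt2: tgtcatggtgtgAGTggctcctgt
Wnt5a: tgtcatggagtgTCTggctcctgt
Wnt3a: tgccacgggctaTCTggcagctgt
Wnt7b: tgtcacggtgtgTCAggctcctgt
Wnt11: tgccatggggtgTCTggctcctgc
Wnt9a: tgccatggtgtgTCTggctcctgc
Wnt7a: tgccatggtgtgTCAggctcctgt
Wnt5b: tgtcacggagtcTCCgggtcctgc
Wnt4: tgtcacggggtgTCGggctcctgc
The Wnt2 stretch lies on the minus strand at chr6:18008792-18008815 and starts at codon 208 of transcript Wnt2-201. The Wnt5a stretch lies on the plus strand at chr14:28522515-28522538 and starts at codon 240. The Wnt3a stretch (chr11:59250053-59250076) and the Wnt7b stretch (chr15:85537812-85537835) lie on the minus strand. The stretches of Wnt11 (chr7:98850260-98850283), Wnt9a (chr11:59330926-59330949) and Wnt4 (chr4:137296345-137296368) lie on the plus strand. Those of Wnt7a (chr6:91366272-91366295) and Wnt5b (chr6:119433800-119433823) lie on the minus strand. Every stretch lay within a single exon. Each stretch was found by its protein motif, Cys-His-Gly, any residue, then Ser-Gly-Ser-Cys, and each of the 18 ligands searched held 1. Of the 24 positions, 12 held the same base in the 9 ligands, and 11 did so over the 18. Most of these shared bases follow from the motif itself, so they are no measure of conservation. The serine itself was written with different codons: TCT in 4 of the 9 ligands, TCA in 2, TCC in Wnt5b, TCG in Wnt4 and AGT in Wnt2.

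The libraries held 42189513 counts over genes in pup 1 and 37026125 in pup 3. Members took 0.193% of these counts in pup 1 and 0.214% in pup 3. The lung label was checked with markers: all 7 alveolar type 2 markers, all 6 alveolar type 1 markers and all 4 airway markers stood at 1 TPM or more in both pups. TPM is an abundance per length, scaled to the same total in every library, that allows levels to be set side by side between genes. Summed alveolar type 2 markers were 85289 TPM in pup 1 and 76521 TPM in pup 3, and because TPM is a share of each library, the other genes share what is left. Summed fibroblast markers were 1751 TPM in pup 1 and 1679 TPM in pup 3, and summed mesothelial markers were 901 TPM in pup 1 and 1054 TPM in pup 3. Most of the mesothelial sum came from Msln (435 TPM in pup 1, 479 TPM in pup 3) and Krt19 (410 TPM in pup 1, 513 TPM in pup 3). Wt1, the lowest of that list, had 1.79 TPM in pup 1 and 2.40 TPM in pup 3. All 5 cardiac muscle markers were also at 1 TPM or more, with sums of 563 TPM in pup 1 and 646 TPM in pup 3. None of the 5 nerve and glia markers, with sums of 1.38 TPM in pup 1 and 2.52 TPM in pup 3, and 2 of the 5 cartilage markers (Matn1 at 0 in both pups) reached that level. The part of any of these cell types in the levels below was not tested, and in a whole organ fewer cells of a type and less RNA per cell cannot be told apart.

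The members were detected at birth in a share near that of all protein-coding genes. Of the 54 members, 36 stood at 1 TPM or more in both pups, the other 18 were below 1 TPM in both, and none passed in only 1 pup. The share was 66.7%, against 60.3% of all protein-coding genes (12942 of 21474). The median of the members' mean levels was 4.01 TPM, against 4.05 TPM over all protein-coding genes. Mean levels of 5 TPM or more were reached by 26 members, of 10 TPM or more by 15, and of 100 TPM or more by 2, Ctnnb1 and Wls.

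**Figure D1:**
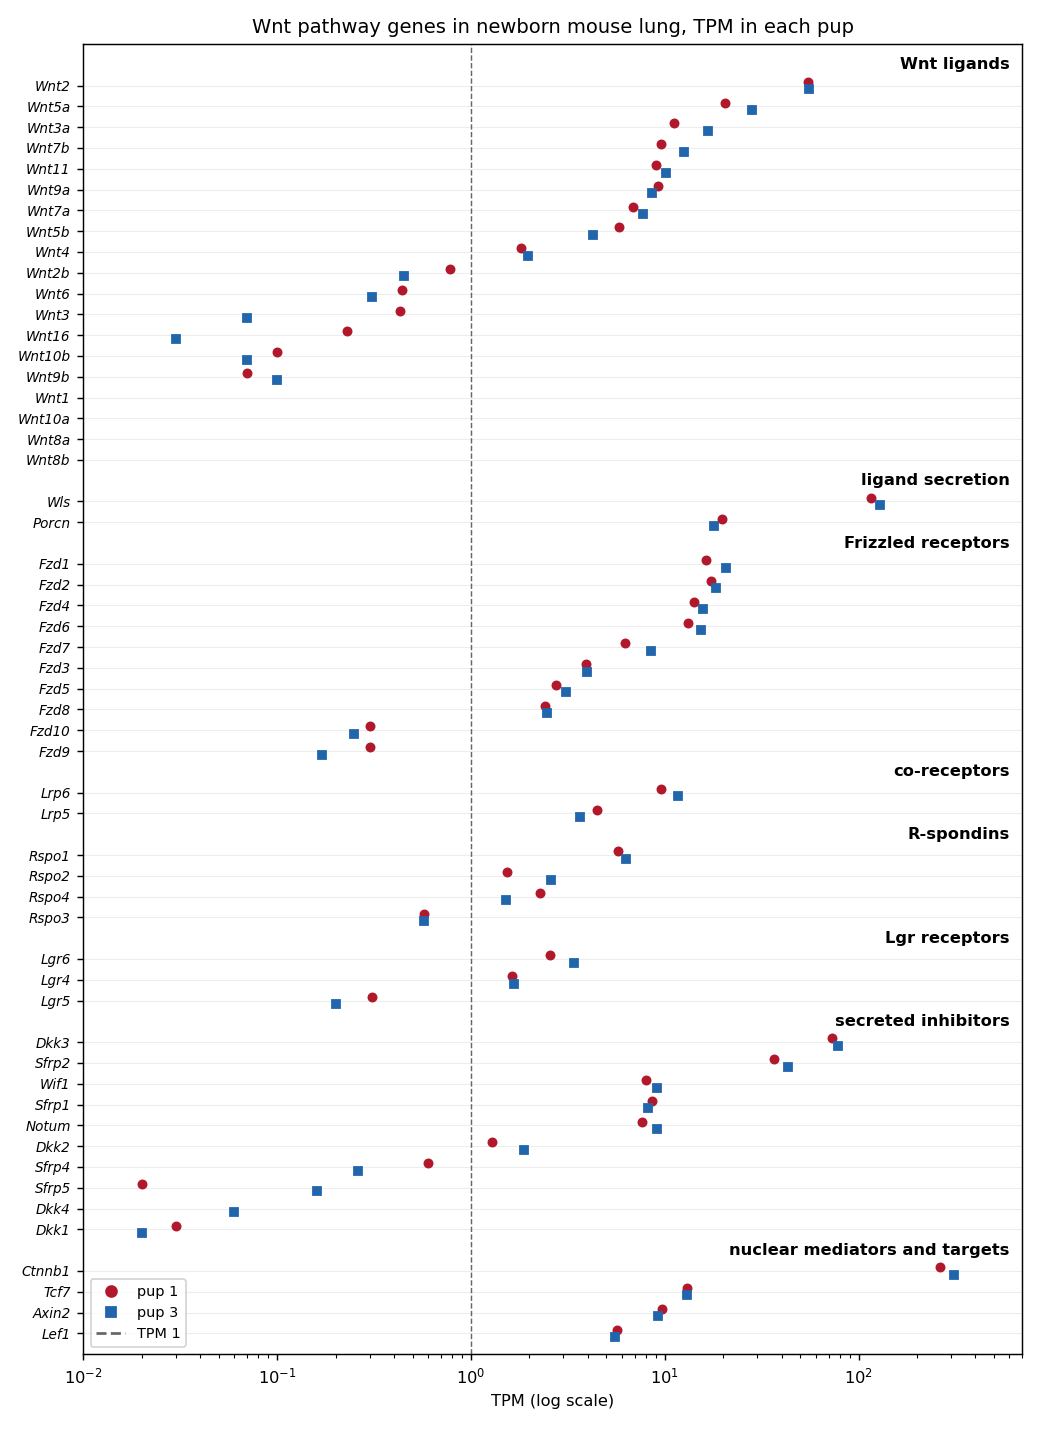
TPM of each Wnt pathway gene (log scale) in pup 1 (circles) and pup 3 (squares), ordered by mean level within each family, with a dashed line at 1 TPM. Ctnnb1 (263 TPM in pup 1, 310 TPM in pup 3) and Wls (115 TPM in pup 1, 130 TPM in pup 3) stand highest, and the 4 ligands without points (Wnt1, Wnt10a, Wnt8a, Wnt8b) were at 0 in both pups, as was Dkk4 in pup 1.

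Wnt2 was the leading ligand. Wnt2, which in the mouse is made by lung mesenchyme and acts with Wnt2b in specifying the lung, is located at chr6:17988940-18030585 on the minus strand. It had 54.6 TPM in pup 1 and 55.5 TPM in pup 3, a mean of 55.0 ± 0.643 TPM (SD, n = 2), higher than 88.1% of protein-coding genes. It held 41.8% of all ligand TPM in pup 1 and 37.8% in pup 3. Its partner Wnt2b was far lower, at 0.78 TPM in pup 1 and 0.45 TPM in pup 3, and both pups were under 1 TPM.

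Wnt5a, the best known ligand of the branch that works without beta-catenin and a regulator of distal lung growth in the mouse, came second. It lies at chr14:28504750-28527448 on the plus strand and had 20.4 TPM in pup 1 and 28.1 TPM in pup 3. Both of its values lay below both Wnt2 values and above both values of Wnt3a, a classical activator of beta-catenin signalling. Wnt3a had 11.1 TPM in pup 1 and 16.8 TPM in pup 3. Together these 3 genes held 66.0% of ligand TPM in pup 1 and 68.5% in pup 3.

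A middle group followed. Wnt7b, a ligand of the lung epithelium that drives growth of the mesenchyme in the mouse, had 9.60 TPM in pup 1 and 12.5 TPM in pup 3. Wnt11, a ligand best known for guiding cell movements, had 9.00 TPM in pup 1 and 10.1 TPM in pup 3. Wnt9a, known from joint formation, had 9.24 TPM in pup 1 and 8.58 TPM in pup 3. Wnt7b was above Wnt11 and Wnt9a and below Wnt3a in each pup, although its range overlapped those of Wnt3a and Wnt11. Wnt3a lay wholly above Wnt11 and Wnt9a, and Wnt11 and Wnt9a changed places between the pups. Wnt7a, a close relative of Wnt7b, came below them without overlap, at 6.85 TPM in pup 1 and 7.76 TPM in pup 3. Wnt5b, the relative of Wnt5a, had 5.77 TPM in pup 1 and 4.28 TPM in pup 3. Wnt4, a ligand needed for kidney tubules, was the lowest ligand detected, at 1.82 TPM in pup 1 and 1.97 TPM in pup 3.

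Among the related ligand pairs with a gene at 1 TPM or more in both pups, 1 gene was far above the other in each pup, with 1 exception. The ratio of Wnt2 TPM over Wnt2b TPM was 69.9 in pup 1 and 123 in pup 3. The ratio of Wnt5a over Wnt5b was 3.54 in pup 1 and 6.57 in pup 3, and that of Wnt9a over Wnt9b was 132 in pup 1 and 85.8 in pup 3. The ratio of Wnt3a over Wnt3 was 25.9 in pup 1 and 239 in pup 3, where Wnt3 had 6 counts. Of these pairs, only Wnt7b and Wnt7a were close, with a ratio of 1.40 in pup 1 and 1.61 in pup 3.

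Of 19 ligands, 10 were below 1 TPM in both pups. Wnt2b, Wnt6, Wnt3, Wnt16, Wnt10b and Wnt9b had between 0.07 and 0.78 TPM in pup 1 and between 0.03 and 0.45 TPM in pup 3. Wnt1, Wnt10a, Wnt8a and Wnt8b had no count in either pup. At these depths, taking 3 counts as the limit that a count of 0 allows, this permits up to 0.0408 TPM of Wnt1 in pup 1 and 0.0479 TPM in pup 3. The highest such limits of the 4 were those of Wnt10a, at 0.0640 TPM in pup 1 and 0.0752 TPM in pup 3. These limits cover counting error only.

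Several Wnt genes are neighbours in the genome (GRCm38), and 4 pairs lay within 100000 bases of each other. Wnt3a (chr11:59248033-59290752, minus strand) and Wnt9a (chr11:59306928-59333552, plus strand) are separated by 16175 bases and point away from each other. This was the only pair of the 4 in which both genes reached 1 TPM in both pups. Wnt9b and Wnt3, also on chromosome 11, are separated by 24328 bases. Wnt9b had 0.07 TPM in pup 1 and 0.10 TPM in pup 3, and Wnt3 had 0.43 TPM in pup 1 and 0.07 TPM in pup 3. In the pairs of Wnt6 with Wnt10a on chromosome 1 (6193 bases apart) and Wnt10b with Wnt1 on chromosome 15 (11706 bases apart), the partner named second had no count. Wnt6 had 0.44 TPM in pup 1 and 0.31 TPM in pup 3, and Wnt10b had 0.10 TPM in pup 1 and 0.07 TPM in pup 3.

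The ligand secretion genes were both well represented. Wls, the carrier of lipid-bearing Wnt proteins, had 115 TPM in pup 1 and 130 TPM in pup 3, above 94.8% of protein-coding genes. Porcn, the enzyme that attaches the lipid to the serine marked above, had 19.7 TPM in pup 1 and 17.98 TPM in pup 3. The ratio of Wls over Porcn was 5.86 in pup 1 and 7.21 in pup 3. Summed over the 19 ligands, TPM was 130 in pup 1 and 147 in pup 3, close in size to Wls alone.

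No single Frizzled receptor stood apart at the top as Wnt2 did among the ligands. Fzd1 had 16.2 TPM in pup 1 and 20.6 TPM in pup 3, and its range held that of Fzd2, with 17.2 TPM in pup 1 and 18.4 TPM in pup 3. Fzd4, which is also the receptor of Norrin in blood vessels, had 14.2 TPM in pup 1 and 15.7 TPM in pup 3. Fzd6, known from hair and tissue polarity, had 13.1 TPM in pup 1 and 15.4 TPM in pup 3, overlapping Fzd4. These 4 genes held 79.2% of Frizzled TPM in each pup. Fzd7, a receptor linked to stem cells of several epithelia, was next and did not overlap them, at 6.26 TPM in pup 1 and 8.49 TPM in pup 3. Fzd3, Fzd5 and Fzd8 had between 2.41 and 3.93 TPM in pup 1 and between 2.46 and 3.98 TPM in pup 3, with no overlap between neighbours. Fzd10 and Fzd9 were below 1 TPM, each with 0.30 TPM in pup 1, against 0.25 TPM for Fzd10 and 0.17 TPM for Fzd9 in pup 3.

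**Figure D2:**
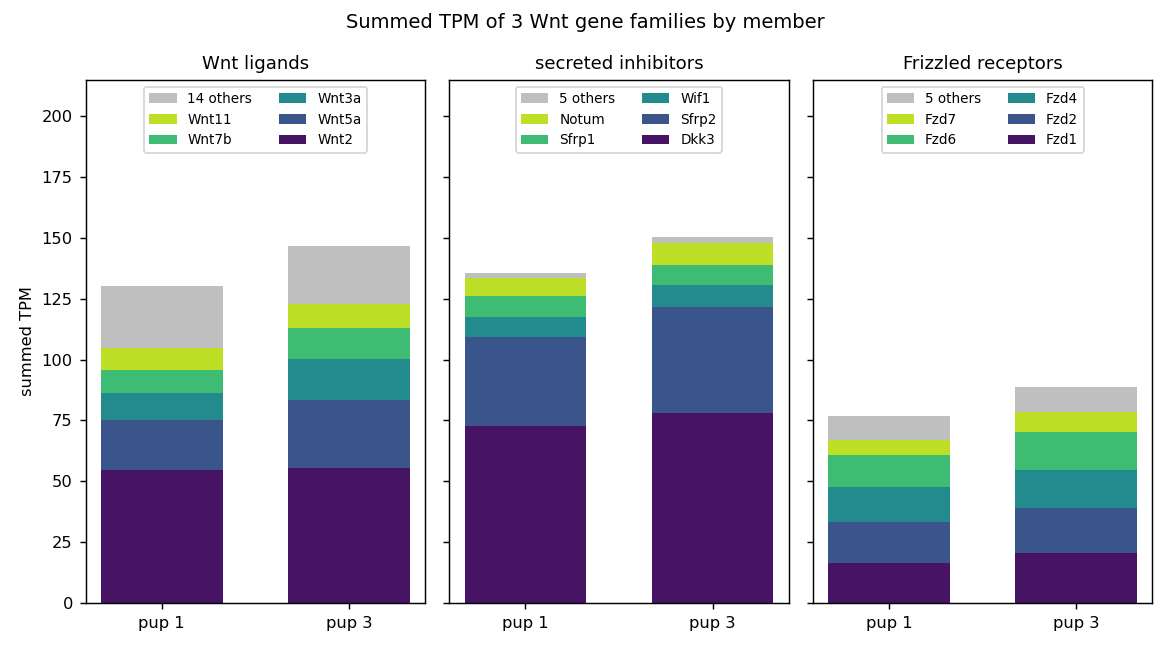
Summed TPM of the Wnt ligands, secreted inhibitors and Frizzled receptors in pup 1 and pup 3 (1 bar per pup), stacked with the highest member at the bottom, the 5 highest members of each family named and the rest in grey. Wnt2 makes up 41.8% of the ligand bar in pup 1 and 37.8% in pup 3, Dkk3 makes up 53.6% of the inhibitor bar in pup 1 and 52.0% in pup 3, and the 4 lowest segments of the Frizzled bar make up 79.2% of it in each pup.

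Of the co-receptors that pair with Frizzleds in beta-catenin signalling, Lrp6 was above Lrp5. Lrp6 had 9.52 TPM in pup 1 and 11.6 TPM in pup 3, and Lrp5 had 4.49 TPM in pup 1 and 3.65 TPM in pup 3. The ratio of Lrp6 over Lrp5 was 2.12 in pup 1 and 3.19 in pup 3, and the ranges did not overlap.

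Apart from Rspo1, the R-spondins and their Lgr receptors had mean levels below the members' median of 4.01 TPM. Rspo1 had 5.72 TPM in pup 1 and 6.33 TPM in pup 3. Rspo2, which is made by lung mesenchyme and is needed for normal lung branching in the mouse, had 1.53 TPM in pup 1 and 2.59 TPM in pup 3. Rspo4, known from nail formation, had 2.28 TPM in pup 1 and 1.52 TPM in pup 3. Rspo2 was the higher of these in pup 3 and Rspo4 in pup 1, so their order was not fixed. Rspo3 had 0.57 TPM in each pup. Of the receptors, Lgr6 led with 2.57 TPM in pup 1 and 3.41 TPM in pup 3. Lgr4, the most widely expressed relative in many tissues, had 1.62 TPM in pup 1 and 1.67 TPM in pup 3. Lgr5, a stem cell marker of the intestine, had 0.31 TPM in pup 1 and 0.20 TPM in pup 3.

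Dkk3 and Sfrp2 made up most of the secreted inhibitor RNA. Dkk3, a divergent member of the Dickkopf family whose action on Wnt signals is less settled than that of Dkk1, had 72.7 TPM in pup 1 and 78.2 TPM in pup 3. Sfrp2, a secreted protein with a Frizzled-like domain that binds Wnts, had 36.8 TPM in pup 1 and 43.3 TPM in pup 3. Together they held 80.7% of inhibitor TPM in pup 1 and 80.9% in pup 3. A trio followed whose ranges overlapped from neighbour to neighbour. Wif1, which binds Wnt proteins in the extracellular space, had 8.02 TPM in pup 1 and 9.10 TPM in pup 3. Sfrp1, the relative of Sfrp2, had 8.62 TPM in pup 1 and 8.18 TPM in pup 3. Notum, the enzyme that removes the lipid from Wnt proteins, had 7.59 TPM in pup 1 and 9.06 TPM in pup 3. Dkk2, an inhibitor that binds the Lrp co-receptors, was the last one detected, at 1.28 TPM in pup 1 and 1.88 TPM in pup 3. Sfrp4, Sfrp5, Dkk4 and Dkk1, the founding inhibitor of the family, were at 0.60 TPM or less in pup 1 and at 0.26 TPM or less in pup 3.

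Summed inhibitor TPM was 136 in pup 1 and 150 in pup 3, against summed ligand TPM of 130 in pup 1 and 147 in pup 3. The log2 ratio of the inhibitor sum over the ligand sum was 0.06 in pup 1 and 0.04 in pup 3 (0.05 ± 0.01, SD, n = 2). This near equality counts Dkk3 as an inhibitor. Without it, an alternative chosen after the data were seen, the inhibitor sum was 62.9 TPM in pup 1 and 72.0 TPM in pup 3. The log2 ratio was then -1.05 in pup 1 and -1.02 in pup 3. That fall follows from the Dkk3 share of the inhibitor sum, 53.6% in pup 1 and 52.0% in pup 3. Sums of RNA levels say nothing of the amounts or activities of the proteins.

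Inside the cell, Ctnnb1 was the highest member by far. Beta-catenin also joins cadherins at cell contacts, so its RNA is not a readout of Wnt signalling. Ctnnb1 (chr9:120929216-120960507, plus strand) had 263 TPM in pup 1 and 310 TPM in pup 3, above 97.9% of protein-coding genes. Tcf7, a DNA-binding partner of beta-catenin, had 12.9 TPM in pup 1 and 13.1 TPM in pup 3. Lef1, its close relative, had 5.67 TPM in pup 1 and 5.56 TPM in pup 3. Axin2, a feedback inhibitor that many tissues switch on in response to beta-catenin, had 9.72 TPM in pup 1 and 9.17 TPM in pup 3. None of the ranges of these 4 genes overlapped. Tcf7 and Lef1 are also expressed in T cells. The 9 T cell and thymus markers summed to 3.51 TPM in pup 1 and 4.06 TPM in pup 3, and 1 of the 9 reached 1 TPM in both pups, Lck with 2.17 TPM in pup 1 and 2.23 TPM in pup 3. No marker of that list was at 0 in both pups, and Cd3e had 0.14 TPM in pup 1 and 0.16 TPM in pup 3. The 5 B cell markers summed to 14.45 TPM in pup 1 and 15.8 TPM in pup 3, and 2 of the 5 reached 1 TPM in both pups. The part of T cells or B cells in the Tcf7 and Lef1 levels was not tested.

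The part of Ctnnb1 that controls its breakdown is shown because it is the switch between ligand and target. Unless a Wnt signal is present, casein kinase 1 and Gsk3 phosphorylate the serines and the threonine whose 4 codons are in capitals, which marks the protein for destruction. The stretch starts at codon 32 of transcript Ctnnb1-201, 42 bases on the plus strand at chr9:120950602-120950643 (GRCm38), read 5′ to 3′.
Ctnnb1: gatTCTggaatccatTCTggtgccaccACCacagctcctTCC
The 2 leading Ctnnb1 transcripts, described below, hold coding sequences of the same length and with the same start codon.

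A further 62 genes of the pathway, which act outside the cell, at its surface or inside it, or are targets, were kept in a list beside the members. Of these, 57 reached 1 TPM in both pups, beside the 60.3% of all protein-coding genes given above. The highest was Gpc3, a cell surface proteoglycan that binds Wnts and Hedgehog, with 258 TPM in pup 1 and 281 TPM in pup 3. Csnk1a1, the casein kinase 1 that primes beta-catenin for breakdown, had 157 TPM in pup 1 and 161 TPM in pup 3, and the related kinase gene Csnk1d had 73.6 TPM in pup 1 and 74.6 TPM in pup 3. The 5 below 1 TPM in both pups, named after their values were seen, were Sostdc1, Kremen2, Celsr3, Draxin and Sost. Sost, a secreted inhibitor known from bone that binds Lrp5 and Lrp6, had 0.03 TPM in pup 1 and 0.06 TPM in pup 3.

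Differences between the pups were small for most members. Counts were scaled between libraries (TMM), and 40 of the 54 members had at least 50 counts over both pups. Of these 40, 17 had a log2 ratio of pup 1 over pup 3 above 0 and 23 below 0, with a median of -0.04, against a median of 0.01 over all 15790 genes with that many counts. With spike-in scaling the medians were 0.10 for the members and 0.15 for all genes, so the sign of the members' median depends on the scaling. The median size of the log2 ratio without its sign was 0.16 for the members and 0.14 for all genes. A pup difference was called by size where the ratio was at least 2-fold and its 95% counting interval left out 1. By that rule 1 of 40 members was higher in pup 1 and none was higher in pup 3. Over all genes the rule called 1.4%, with 0.659% higher in pup 1 and 0.741% higher in pup 3, so 1 member is near this background. With 1 library per pup, no p-value is available.

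The member called was Lgr5 (chr10:115450311-115587780, minus strand), with 45 counts in pup 1 and 17 in pup 3. Its ratio of scaled counts, pup 1 over pup 3, was 2.39 (95% counting interval 1.34 to 4.45). In TPM the gap was smaller, 0.31 in pup 1 and 0.20 in pup 3, because the estimated transcript length differed. It was 4631 bases in pup 1 and 3183 bases in pup 3. The shorter length in pup 3 rests on transcript Lgr5-203 of 607 bases, given 37.3% of the gene's abundance from 1.04 expected counts. Lgr5 was under 1 TPM in both pups, and it was not called on the log2(TPM + 1) scale, on which no member was. Just outside the rule were Wnt2b, with 88 counts in pup 1 against 43 in pup 3, a ratio of 1.85 (1.27 to 2.73), and Wnt3, with 41 counts in pup 1 and 6 in pup 3, too few over both pups to be called.

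**Figure D3:**
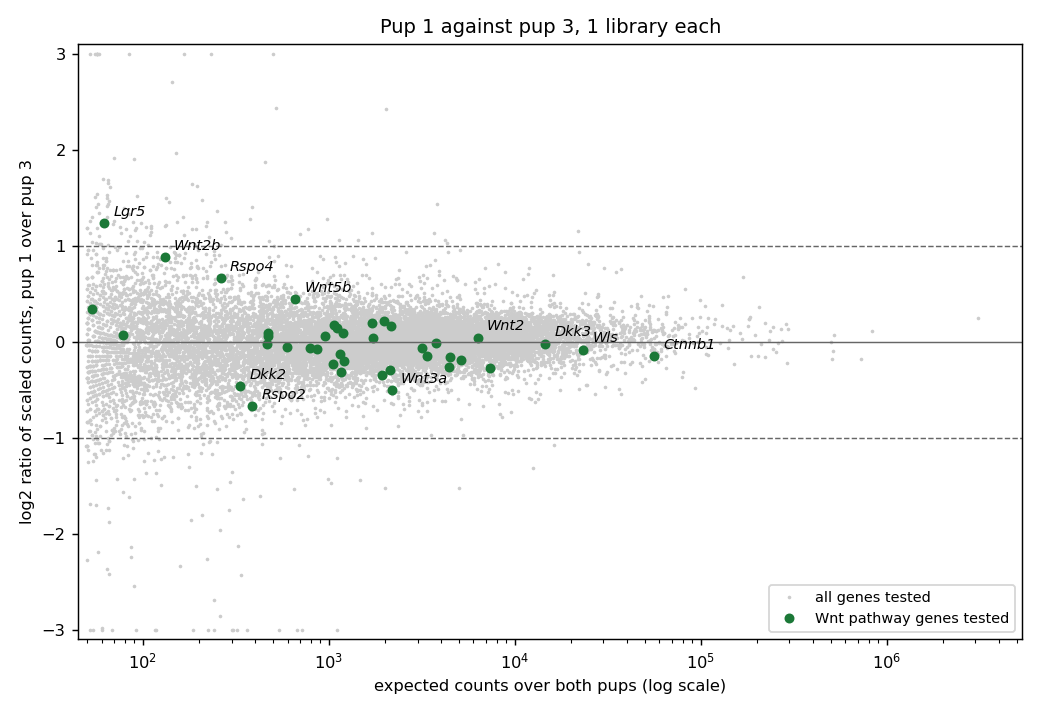
Log2 ratio of scaled counts of pup 1 over pup 3 (1 library each) against the expected counts over both pups (log scale) for all 15790 genes with at least 50 counts (grey) and the 40 Wnt pathway genes among them (green), with dashed lines at 2-fold and log2 ratios beyond 3 in either direction drawn at the edge. Lgr5 at 1.23 is the only Wnt pathway gene beyond the lines, and the lowest is Rspo2 at -0.67.

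Counting intervals also left out a ratio of 1 for members that did not reach 2-fold. Lgr5 included, the interval left out 1 for 7 of the 40 members with a higher value in pup 1 and for 15 with a higher value in pup 3. Over all genes it held for 46.2%, with 24.6% higher in pup 1 and 21.6% higher in pup 3, so at this depth counting error alone is a low bar. Rspo2 had 159 counts in pup 1 against 229 in pup 3, a ratio of 0.627 (0.509 to 0.770), the lowest of the 40. Rspo4 went the other way, with 167 counts in pup 1 against 95 in pup 3, a ratio of 1.59 (1.23 to 2.06). Wnt3a had 956 counts in pup 1 and 1225 in pup 3, a ratio of 0.704 (0.646 to 0.767). Wnt5a had a ratio of 0.825 (0.788 to 0.864), and its relative Wnt5b had a ratio of 1.36 (1.16 to 1.59). Intervals that held 1 included those of Wnt2, at 1.03 (0.979 to 1.08), and Dkk3, at 0.986 (0.954 to 1.02). Of the further pathway genes, 58 were counted well enough, and 0 were called by the size rule in either direction. Their median log2 ratio was 0.00, and the counting interval left out 1 for 9 genes with the higher value in pup 1 and for 14 with the higher value in pup 3.

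The transcript tables show which forms of these genes were present. Of the 36 members detected, 13 had a single transcript in the tables and 23 had several. The same transcript led in both pups in 19 of the 23, and Wnt5b, Lgr4, Notum and Axin2 were the exceptions. These shares are estimates that split shared reads between transcripts, and they carry no error of their own in the tables.

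For Ctnnb1, transcript Ctnnb1-214 held 62.1% of the gene's abundance in pup 1 and 57.4% in pup 3. Ctnnb1-201 held 31.8% in pup 1 and 35.3% in pup 3, and both have a coding sequence of 2343 bases. Lef1 and Tcf7 matter here because both genes can make short proteins without the beta-catenin binding part. Lef1-201 held 79.2% of Lef1 in pup 1 and 79.6% in pup 3. Coding transcripts with the start codon of the longest Lef1 form together held 97.3% in pup 1 and 93.2% in pup 3. For Tcf7, Tcf7-201 held 74.9% in pup 1 and 83.1% in pup 3, and Tcf7-202 held 25.1% in pup 1 and 17.0% in pup 3. Both Tcf7 transcripts have a coding sequence of 909 bases and the same start codon, and no longer form is listed for Tcf7 in these tables, so the long and short proteins could not be compared.

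Among the ligands, Wnt2-201 held 51.8% of Wnt2 in pup 1 and 57.1% in pup 3. The other Wnt2 transcript of the tables, with 48.2% in pup 1 and 42.9% in pup 3, has no counterpart in the annotation used for names. Wnt5a was split between Wnt5a-201, with 57.5% in pup 1 and 52.4% in pup 3, and Wnt5a-202, with 38.5% in pup 1 and 37.2% in pup 3. These forms start at different codons, with coding sequences of 1140 and 1080 bases. For Wnt11 the leading transcript was Wnt11-202, which the annotation marks for nonsense-mediated decay, with 38.9% in pup 1 and 39.7% in pup 3. Wnt11-205, a full coding form, held 20.1% in pup 1 and 23.4% in pup 3. The gene level of Wnt11 covers these forms together.

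Axin2 and Notum, which both restrain Wnt signalling, also carried much RNA outside the full coding forms. Axin2-203, a processed transcript without a coding sequence, held 37.8% in pup 1 and 29.6% in pup 3, and the full coding form Axin2-201 held 26.4% in pup 1 and 32.4% in pup 3. For Notum, the retained intron form Notum-201 held 22.3% in pup 1 and 38.3% in pup 3. Wif1-202, another retained intron form, held 27.9% of Wif1 in pup 1 and 3.24% in pup 3. Wnt5b was listed as 2 nearly equal forms in pup 1, with 49.0% for Wnt5b-203 and 51.0% for Wnt5b-202, and as Wnt5b-203 alone in pup 3. Its 2 forms were not split this sharply in the posterior mean estimate, where Wnt5b-202 held 39.7% in pup 1 and 10.5% in pup 3.

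**Figure D4:**
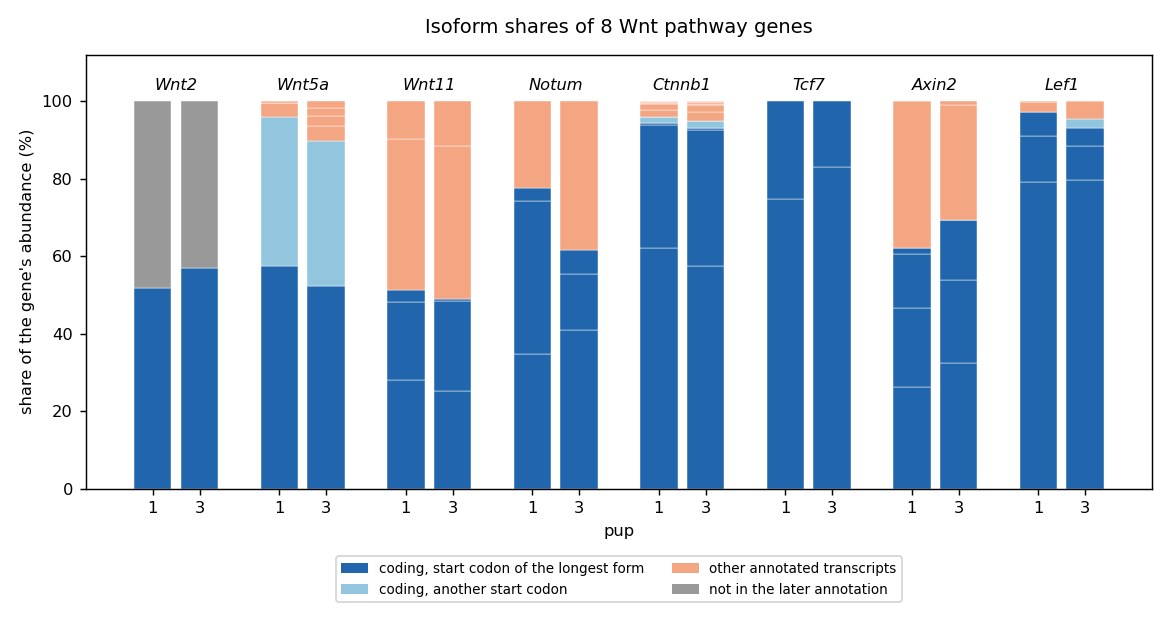
Share of each gene's abundance (%) held by its transcripts in pup 1 and pup 3 for 8 Wnt pathway genes, with 1 segment per transcript and colours for coding forms with the start codon of the longest form, other coding forms, other annotated transcripts and transcripts absent from the later annotation. Tcf7 consists of coding forms in both pups, whereas Wnt11, Axin2 and Notum hold large shares of other transcripts, led by Wnt11-202 with 38.9% in pup 1 and 39.7% in pup 3.

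The sources used here do not give whether counting used strand, and exons of 11 members overlap genes on the opposite strand. The overlapping gene with most counts was Ulk4, over Ctnnb1, with 452 counts in pup 1 and 422 in pup 3. Among the ligands, Gm2670, antisense to Wnt5a, had 38.8 counts in pup 1 against 40.4 in pup 3, and AU022754, antisense to Wnt7b, had 19 counts in pup 1 against 34 in pup 3. These 3 partners had far fewer counts than their members, but reads from either strand of the overlap cannot be told apart.

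The promoters of the members were searched for words bound by Tcf and Lef proteins on both strands, namely CTTTGAA and its variants CTTTGTT, then CTTTGAT, and last CTTTGTA. Matches on the 2 strands may share letters, and none found in a member did. Windows of 250 bases before and 50 after the start came from RefSeq (GRCm38.p6), and 35 of the 54 members had one. A word was found in 6 of the 35 genes (17.1%), against 18.9% of all 27025 genes with a window. In a shorter window, with the last 150 bases before the start and the 50 after it, the same count of 6 member genes stood against 12.1% of all genes, so the side of the background on which the members lie depends on the window. The 6 were Wnt11, Fzd7, Wnt5b, Wnt3, Dkk1 and Lef1. The words of Wnt5b and Lef1 lay before downstream starts, and that of Wnt3 lay after its start. The 250 bases before the start are shown for Wnt11 and Fzd7, both detected here, and for Axin2, the best known target gene, read 5′ to 3′ on the plus strand with any word in capitals.
Wnt11: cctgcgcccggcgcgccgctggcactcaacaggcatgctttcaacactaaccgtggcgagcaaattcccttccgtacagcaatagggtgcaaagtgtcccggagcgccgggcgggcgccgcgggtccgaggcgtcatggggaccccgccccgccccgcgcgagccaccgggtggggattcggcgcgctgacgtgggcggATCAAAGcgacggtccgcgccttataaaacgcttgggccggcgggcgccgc
Fzd7: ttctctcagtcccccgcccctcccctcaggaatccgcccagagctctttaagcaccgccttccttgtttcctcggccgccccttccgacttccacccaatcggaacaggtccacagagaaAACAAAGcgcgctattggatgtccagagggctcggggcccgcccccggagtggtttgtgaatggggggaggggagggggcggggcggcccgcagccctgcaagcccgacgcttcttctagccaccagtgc
Axin2: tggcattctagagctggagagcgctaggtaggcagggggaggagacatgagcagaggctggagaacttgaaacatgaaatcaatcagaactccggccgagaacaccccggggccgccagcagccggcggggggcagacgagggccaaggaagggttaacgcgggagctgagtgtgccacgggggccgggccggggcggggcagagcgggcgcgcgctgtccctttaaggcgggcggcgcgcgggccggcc
In the Wnt11 window (chr7:98834862-98835111) the word begins 51 bases before the start, and in the Fzd7 window (chr1:59481897-59482146) it begins 130 bases before it. The Axin2 window (chr11:108920099-108920348) holds none of these letters. GC content was 70.8% in the Wnt11 window, 65.2% in the Fzd7 window and 69.2% in the Axin2 window. A word is a match of letters and not a bound site, and these data do not measure binding.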

How the data were processed

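Total RNA longer than 200 nt was extracted with mirVana, 10 ng went into each library with spike-in RNAs, and a SMARTer low-input manual is named, per the labels. The authors deposited gene and transcript tables with expected counts (estimated, not always whole), TPM (per effective length, scaled to the library), FPKM, posterior mean values, and isoform percent, per the file headers. Assembly mm10 and annotation M4 are named in the deposited text; the sources used here give no aligner, counter or strand setting. With 1 library per pup, variation between libraries of the same pup could not be estimated. Intervals and floors cover counting error only.

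Symbols, transcripts and coordinates came from GENCODE M21 on the same assembly, which matched 42462 of 43346 gene identifiers without version. TMM factors (edgeR 4.0.16 in R 4.3.3) were applied to the rounded expected counts, giving pup 1 an effective size of 1.11 times pup 3. The size rule needs a ratio of 2-fold with a prior count of 0.5, 50 counts over both pups and an exact conditional binomial 95% interval that leaves out 1. Printed ratios carry no prior count, whereas printed log2 ratios between the pups and their medians carry it. The rule was tested on simulated data with counting error only, so that test does not cover other variation between libraries. Detection means 1 TPM in both pups. DESeq2 1.42.0 size factors, total counts, spike-ins, other thresholds and units were alternatives. No condition is compared and no p-value is given.

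The members, lists and tests were chosen with earlier results of these data known. Genes named with values in each pup are members with a mean of 5 TPM or more, the 3 highest of each family, members past the size rule and Wnt neighbour pairs, plus the 3 highest further pathway genes. Others named were chosen after their values were seen.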

Additional observations from a re-analysis of the deposited data

How the results depend on the processing

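Of 46 alternative values, 31 stayed on the same side or within the spread, 14 moved and 1 reversed. With 2 pups, a mean with 1 pup left out always lies within the SD, so those values could only count as the same. The members' median log2 ratio, which changed sign with spike-in scaling, also counted as the same, judged by a spread of 0.249. Members detected ranged between 35 and 44 over the alternatives. They were 36 with either pup left out, which follows from no member passing in a single pup. The Wnt2 share of the ligand sum, 39.8%, was 37.8 to 41.8% with 1 pup left out and 27.3% by expected counts, which are not per length. The log2 ratio of inhibitors over ligands, 0.05, was 0.04 to 0.06 with 1 pup left out, 0.028 by posterior mean TPM, 0.030 by expected counts and 0.57 as a difference of mean log2(TPM + 1). Without Dkk3, chosen after the data were seen, it reversed to -1.04, which follows from the Dkk3 share of the inhibitor sum. Members called higher in pup 1, 1 by the main rule, were 2 with spike-in scaling (Lgr5, Wnt2b), 3 with no count minimum and 3 with a minimum of 10 (Lgr5, Sfrp4, Wnt3 in each), and 3 at 1.5-fold (Lgr5, Rspo4, Wnt2b). They were 0 by log2(TPM + 1) and 2 by log2(TPM + 0.1) (Wnt16, Wnt3). Members called higher in pup 3, 0 by the main rule, were 1 with no count minimum (Sfrp5), 1 at 1.5-fold (Rspo2) and 1 by log2(TPM + 0.1) (Sfrp5). Over all genes 221 were called by the main rule, 701 with no count minimum, 590 with a minimum of 10, 799 at 1.5-fold and 2005 by log2(TPM + 0.1). The members' median log2 ratio of -0.04 turned to 0.10 with spike-in scaling, which placed the median of all genes at 0.15, and rests on 317 spike-in counts in pup 1 and 316 in pup 3. The mean share of Lef1-201, 79.4%, was 68.1% by the posterior mean. The causes were not tested. No paired analysis was possible because there is 1 group.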
